A study of Gallus gallus with 31 samples.

Results

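The follicle-stimulating hormone β subunit (FSHB), luteinizing hormone β subunit (LHB), thyroid-stimulating hormone β subunit (TSHB) and common glycoprotein hormone α subunit (CGA) were followed on a spotted chicken cDNA array, each by the 1 spot that carries it, as 4 of 19200 printed spots. The members were chosen by name, as the subunits of the pituitary glycoprotein hormones, and by no rule on their values. Earlier results of these data were known when they were chosen. Anterior pituitary glands came from male meat-type chickens of 2 lines, high growth (HG) and low growth (LG), selected in opposite directions on body weight at 8 weeks, and were taken at posthatch weeks 1, 3, 5 and 7. The analysis holds 15 HG and 16 LG birds, each on an array of its own. Every combination of line and age has 4 birds except HG at week 1, which has 3. No treatment is named for either line. The lines were reared apart until 3 weeks of age and mixed afterwards. Rearing in those first weeks and line therefore cannot be told apart at any of the 4 ages. A file header of HG week 1 replicate 1 names week 3, and the bird was kept as week 1 as its label says.

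FSH, LH and TSH are each a pair of 1 α and 1 β chain. The α chain is the same protein in every one of them, and the β chain gives the hormone its receptor and action. Gonadotropes of the anterior pituitary make FSH and LH, which act on the gonads, and thyrotropes make TSH, which drives the thyroid. CGA is made in both cell types, and the release of the hormones is driven from the hypothalamus by gonadotropin-releasing hormone and thyrotropin-releasing hormone. In chicken GRCg7b (RefSeq), FSHB is at chr5:4729850-4733228, TSHB at chr26:4016750-4023301 and CGA at chr3:76278188-76299905. The LHB spot carries no symbol in the platform table and is named as the study named it.

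Each array compared amplified RNA of a bird, labelled with Cy3, with that of a pool of all samples, labelled with Cy5. A value is the log2 ratio of bird to pool, and 0 is an equal normalized signal of both. The dyes were not swapped, so 0 need not be the true level of the pool for a spot. All CGA group means lay below 0 (−1.18 to −0.26). Ratios compare birds for 1 spot and do not compare the amount of 1 subunit with another. The RNA is that of a whole gland, in which fewer cells of a type and less RNA per cell cannot be told apart. Nothing in the labels ties replicates to separate RNA extractions or hybridisation days, and p-values measure the spread between these birds only. Standard errors and adjusted p are those of limma over 17193 tested spots.

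The 4 spots were not measured equally well. TSHB was usable on all 31 arrays with a local background of 1.69 to 11.7% of its Cy3 signal, and LHB on 30 arrays with a background of at most 48.2%. FSHB, also usable on 30 arrays, was dim on many of them, with the background above 50% of the Cy3 signal on 13 arrays (6 HG and 7 LG). These dim FSHB spots were unevenly spread over replicate numbers, with 6 of 8 arrays of number 1, 5 of 7 of number 2, 2 of 7 of number 3 and 0 of 8 of number 4. They were also uneven over age, on 4 of 7 usable arrays at week 1, 4 of 7 at week 3, 3 of 8 at week 5 and 2 of 8 at week 7. The median FSHB background was 51.8, 54.1, 21.2 and 17.3% of the signal in that order. CGA had the opposite fault, since it held saturated pixels on all 26 arrays on which it was usable, and a median of 11.3% of its pixels was unsaturated (0.53 to 98.68%). The deposited values exclude saturated pixels, so the CGA ratio comes from the few pixels that were left, between 2 and 166 of them, and no fold is given for it. The CGA log2 ratio was higher where more pixels were unsaturated (Pearson's r = 0.53, Spearman's rho = 0.45, n = 26 arrays, permutation p = 0.00519, adjusted over 4 relations 0.019). It had a median of −0.28 (−1.28 to 0.36) on 14 arrays with at least 10% unsaturated pixels, against −0.87 (−2.33 to −0.10) on 12 arrays below that. The relation was also seen in deviations from the group means (r = 0.56, rho = 0.57, permutation p = 0.00951), and r was 0.45 for the ratios without the 2 farthest arrays. The FSHB ratio did not pass the same test against its background share (r = −0.22, rho = −0.29, n = 30, permutation p = 0.239, adjusted 0.319). Being run on the signed ratio, the test cannot show whether dim spots lay nearer to 0 or were more scattered. It therefore does not show that FSHB ratios were free of background effects.

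**Figure D1:**
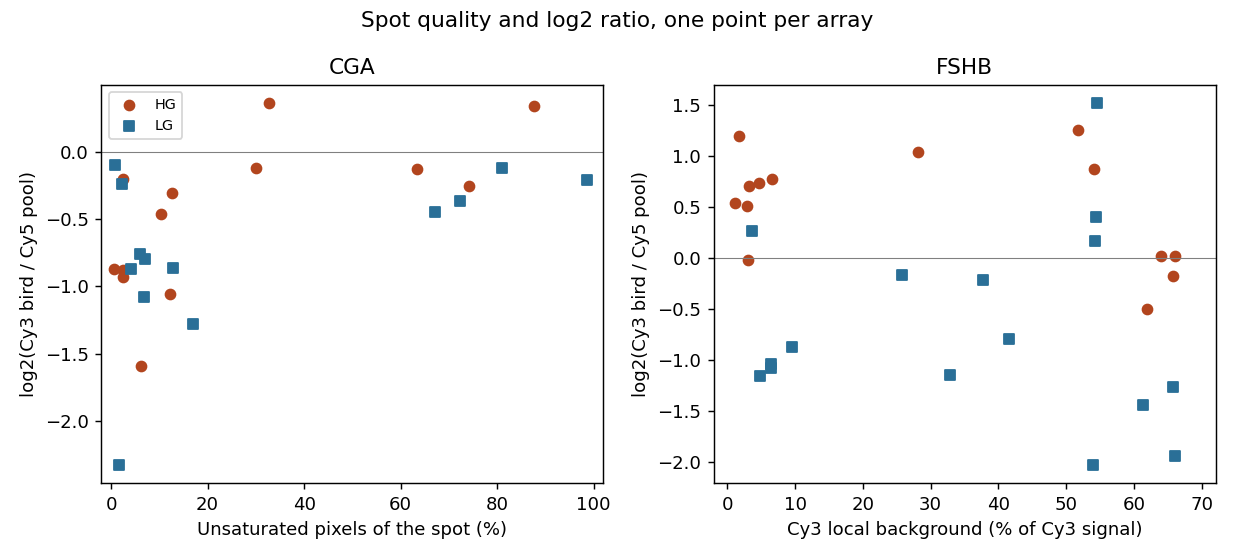
Log2 ratio of bird to pool against the unsaturated pixels of the CGA spot in percent (left) and the Cy3 background of the FSHB spot in percent of the Cy3 signal (right), with 1 point per array, HG as circles and LG as squares. Most CGA points lie at the left edge, with a median of 11.3% unsaturated pixels. FSHB backgrounds run from 1.18 to 66.1% of the signal, with 13 arrays above 50%.

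The 3 β subunits were higher in HG than in LG pituitaries, and each passed the adjusted test when the 4 ages were averaged. The line difference was 1.15 ± 0.22 on the log2 scale for FSHB (SE, 2.22-fold, adjusted p = 0.0114), 1.09 ± 0.17 for LHB (2.13-fold, adjusted p = 0.00142) and 0.86 ± 0.14 for TSHB (1.82-fold, adjusted p = 0.00148). Of all tested spots 0.337% passed this test (58 of 17193), 0.174% passed with HG higher (30 spots), and 7.25% had an unadjusted p under 0.05. Ordered by p over all spots, LHB was the 11th, TSHB the 12th and FSHB the 25th. The CGA spot did not pass, with a difference of 0.21 ± 0.23 (adjusted p = 0.961) in the ratio that its unsaturated pixels gave. The deposited values hold CGA on 20 of these 26 arrays, and the arrays left out had 2 to 9 unsaturated pixels. There the CGA difference was 0.32, with an unadjusted p under 0.05, and it did not pass (adjusted p = 0.349). The deposited values were also normalized differently, so the part of the arrays left out was not tested. In Cy3 alone the CGA difference was −0.17. Leaving out any 1 bird kept the 3 calls, with differences of 1.06 to 1.24 for FSHB, 0.99 to 1.17 for LHB and 0.78 to 0.92 for TSHB. The Cy3 channel alone gave similar differences for the 3 β subunits (1.17, 1.14 and 0.80 for FSHB, LHB and TSHB) but none passed, and with replicate numbers 2 to 4 only, FSHB (adjusted p = 0.18) and TSHB (adjusted p = 0.0729) no longer passed.

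**Figure D2:**
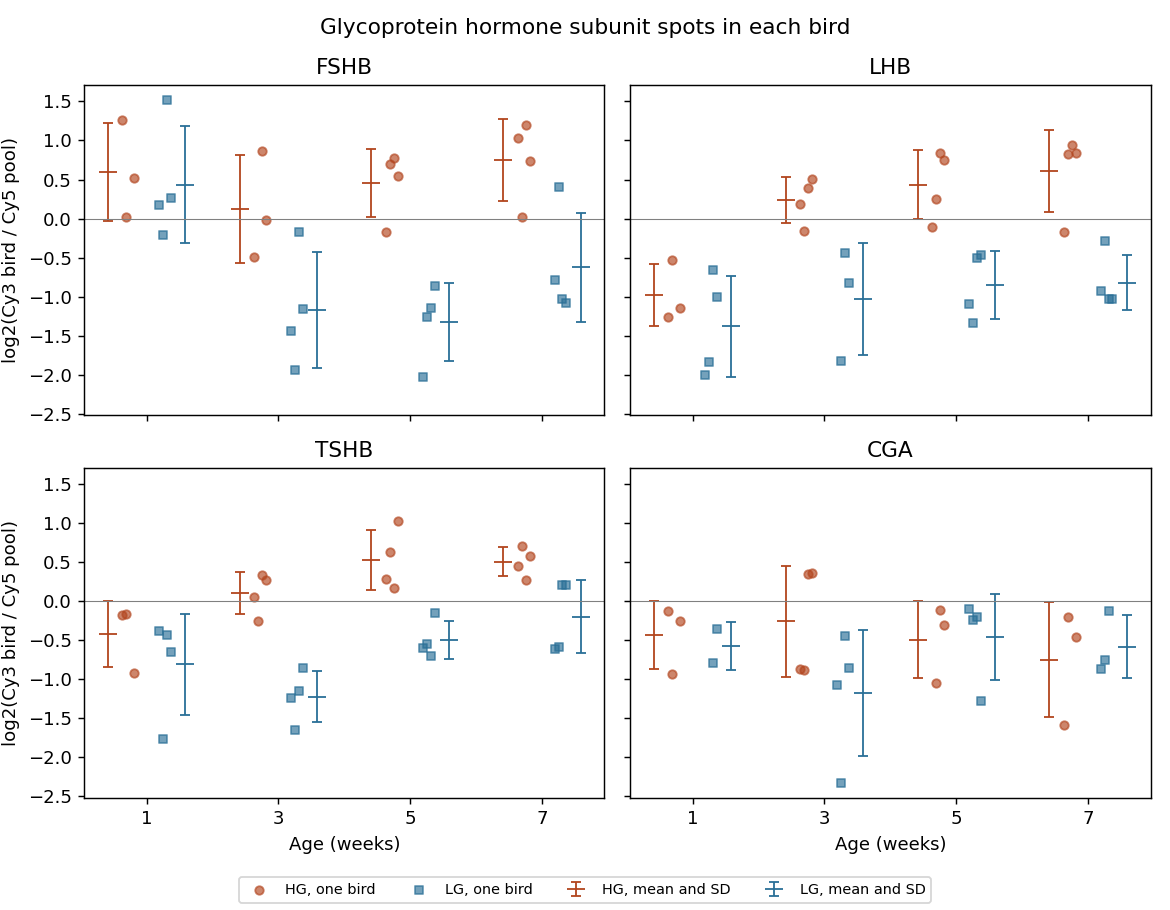
Log2 ratio of bird to pool (vertical axis) of the 4 subunit spots by age in weeks, with 1 point per bird, HG as circles at the left and LG as squares at the right of each age, and the group mean with its SD as a bar. LHB and TSHB separate the lines completely at weeks 3, 5 and 7, FSHB at week 5 only, and CGA at no age.

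For LHB, the HG birds at week 1 had log2 ratios of −1.27, −0.53 and −1.15, against −2.01, −1.83, −0.66 and −1.01 in LG birds. At week 3 the HG birds had 0.19, −0.16, 0.40 and 0.50, against −1.83, −0.44 and −0.83 in the 3 usable LG birds. The lines overlapped at week 1, where HG was separate and higher for 4.31% of spots, and stood apart at week 3. At week 5 LHB was −0.11, 0.25, 0.84 and 0.75 in HG birds, against −1.09, −1.34, −0.50 and −0.46 in LG birds. At week 7 it was −0.17, 0.82, 0.94 and 0.84 in HG birds, against −0.93, −0.29, −1.03 and −1.03 in LG birds. Every HG bird was thus above every LG bird at weeks 3, 5 and 7. Separation with HG higher at all 3 of these ages was found for 14 spots, 0.0814% of those tested, and LHB and TSHB were both among them. Taken singly, week 3 separated 3.17% of spots in this direction, week 5 separated 2.19% and week 7 separated 3.32%.

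TSHB in HG birds at week 1 was −0.18, −0.17 and −0.92, against −0.39, −1.76, −0.43 and −0.65 in LG birds. At week 3 it was 0.050, −0.26, 0.34 and 0.27 in HG birds, against −1.24, −1.65, −1.15 and −0.86 in LG birds. The smallest gap between the lines at week 3 lay between a HG bird at −0.26 and a LG bird at −0.86. At week 5 TSHB was 0.28, 0.63, 0.16 and 1.03 in HG birds, against −0.60, −0.55, −0.70 and −0.15 in LG birds. At week 7 it was 0.45, 0.71, 0.27 and 0.58 in HG birds, against −0.62, −0.59, 0.20 and 0.21 in LG birds. The lines were separate at week 7 too, but 2 LG birds, at 0.20 and 0.21, lay just below the lowest HG bird at 0.27.

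FSHB was 1.26, 0.017 and 0.52 in HG birds at week 1, against 0.17, −0.22, 1.52 and 0.27 in LG birds. At week 3 it was −0.50, 0.87 and −0.015 in the 3 usable HG birds, against −1.44, −1.94, −0.17 and −1.15 in LG birds. The lines overlapped at both ages, and the highest FSHB ratio of any bird was that of a LG bird at week 1. The Cy3 background of that bird was 54.5% of the signal. At week 1 only 1 HG and 1 LG array reached 2 times the background in both FSHB channels. At week 5 FSHB was −0.18, 0.70, 0.77 and 0.54 in HG birds, against −2.03, −1.26, −1.15 and −0.87 in LG birds. At week 7 it was 1.04, 0.018, 1.20 and 0.73 in HG birds, against −0.79, 0.41, −1.04 and −1.08 in LG birds. The lines stood apart at week 5 and overlapped at week 7 through 1 LG bird, at 0.41, whose Cy3 background was 54.4% of the signal. With only the 16 arrays on which both FSHB channels reached 2 times the background, the line difference was 1.13. HG week 1, HG week 3 and LG week 1 then held 1 array each, so this value rests partly on single birds.

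CGA ranged over −2.33 (LG week 3 replicate 2) to 0.36 (HG week 3 replicate 4), and the lines overlapped at every age. Its group means were −0.44 ± 0.43 (SD, n = 3) at week 1, −0.26 ± 0.71 (n = 4) at week 3, −0.49 ± 0.49 (n = 3) at week 5 and −0.75 ± 0.74 (n = 3) at week 7 in HG. In LG they were −0.58 ± 0.30 (n = 2), −1.18 ± 0.81 (n = 4), −0.46 ± 0.55 (n = 4) and −0.58 ± 0.40 (n = 3) at the same ages. No gap between neighbouring CGA group means exceeded the pooled SD of 0.61 within groups.

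At single ages none of the 4 spots passed the adjusted test for line, and few spots on the array did (0.0116, 0.00582, 0.0407 and 0.0407% in order of age). Before adjustment none of the 4 passed at week 1 (3.26% of all spots did), all 4 at week 3 (4.26%), and the 3 β subunits at weeks 5 (5.48%) and 7 (5.12%). The CGA difference at week 3, 0.92 ± 0.40 (SE), rests on the saturated spot and was −0.35 in Cy3 alone. The lowest CGA ratio, in LG week 3 replicate 2, came from 6 unsaturated pixels. The β subunits differed least at week 1, by 0.16 ± 0.45 for FSHB, 0.40 ± 0.35 for LHB and 0.39 ± 0.29 for TSHB (SE). At week 3 the differences were 1.29 ± 0.45, 1.26 ± 0.35 and 1.33 ± 0.27 in that order, with TSHB nearest to the threshold (adjusted p = 0.0884). FSHB differed most at week 5, by 1.78 ± 0.42 (adjusted p = 0.107), and by 1.37 ± 0.42 at week 7 (adjusted p = 0.442). LHB differed by 1.28 ± 0.33 at week 5 and 1.43 ± 0.33 at week 7, and TSHB by 1.03 ± 0.27 and 0.70 ± 0.27. Whether the line difference itself changed with age was tested by the interaction, which passed for 0.0116% of spots (2.74% unadjusted) and for none of the 4 (adjusted p = 1.00 for each, unadjusted p of 0.0845 for FSHB, 0.165 for LHB, 0.119 for TSHB and 0.286 for CGA). The small differences at week 1 are therefore not shown to differ from those at later ages. With the deposited values FSHB and LHB passed at weeks 5 and 7, and several other settings moved single-age calls across the threshold.

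**Figure D3:**
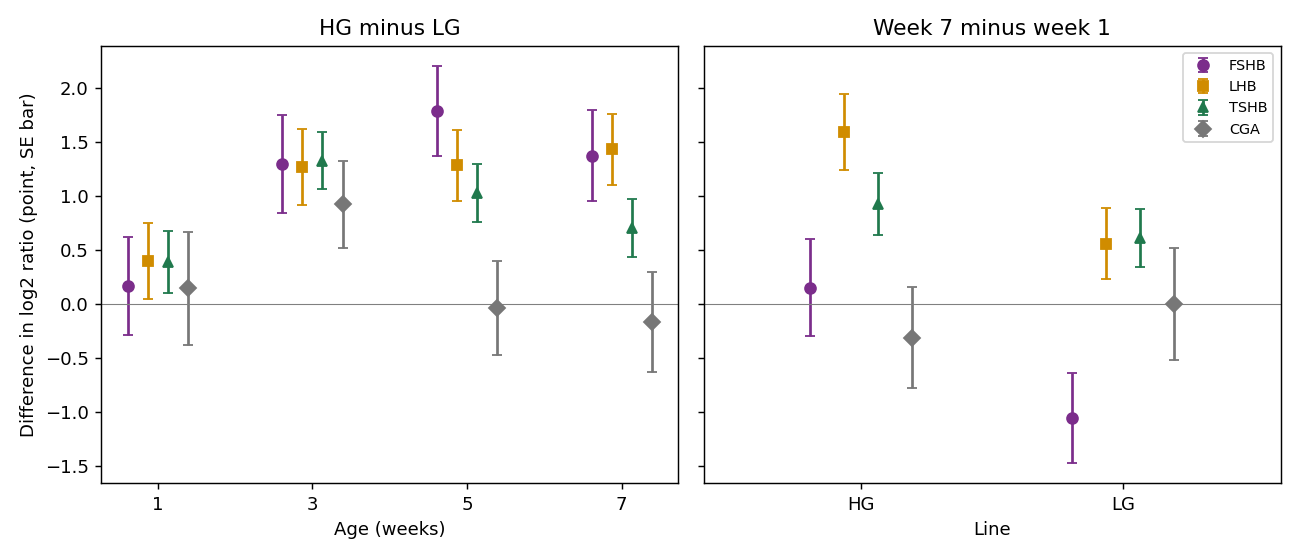
Differences in log2 ratio with their standard errors for the 4 subunits, HG minus LG at each age in weeks (left) and week 7 minus week 1 in each line (right). The 3 β subunits lie at 0.70 or above from week 3 on in the left panel, and in the right panel LHB and TSHB lie above 0 in both lines and FSHB lies below 0 in LG.

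The group means of the β subunits ran differently over age, although none of these subunits passed the adjusted test for age. LHB in HG had group means of −0.98 ± 0.40 (SD, n = 3), 0.23 ± 0.29, 0.43 ± 0.44 and 0.61 ± 0.52 (n = 4) at weeks 1, 3, 5 and 7, and in LG of −1.38 ± 0.65 (n = 4), −1.03 ± 0.71 (n = 3), −0.85 ± 0.44 and −0.82 ± 0.35 (n = 4). The largest step in the order of the 8 LHB means, 1.05, lay between HG week 3 and LG week 7 and exceeded the pooled SD of 0.49, with HG weeks 3, 5 and 7 above it and HG week 1 among the LG groups below it. TSHB in HG had −0.42 ± 0.43 (n = 3), 0.10 ± 0.27, 0.53 ± 0.39 and 0.50 ± 0.19 (n = 4), and in LG −0.81 ± 0.65, −1.22 ± 0.32, −0.50 ± 0.24 and −0.20 ± 0.47 (n = 4 each). FSHB in HG had 0.60 ± 0.63 (n = 3), 0.12 ± 0.69 (n = 3), 0.46 ± 0.43 and 0.75 ± 0.52 (n = 4), and in LG 0.44 ± 0.75, −1.17 ± 0.75, −1.32 ± 0.50 and −0.63 ± 0.70 (n = 4 each). The step of 0.75 between HG week 3 and LG week 7 was the only one among the FSHB means above the pooled SD of 0.63, and LG week 1 lay on its upper side with the HG groups. For TSHB 2 steps exceeded the pooled SD of 0.39, 0.40 between HG weeks 7 and 3 and 0.42 between LG weeks 1 and 3.

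Age, over both lines, passed the adjusted test for 0.576% of spots (99 of 17193) and for none of the 4, with adjusted p of 0.0700 for TSHB, 0.0859 for LHB, 0.329 for FSHB and 0.973 for CGA. Before adjustment the 3 β subunits passed, as 8.61% of spots did. Within HG the age test passed for 0.0931% of spots and within LG for 0.145%, again for none of the 4, while 5.35% in HG and 5.82% in LG passed unadjusted. The unadjusted p within HG was 0.000707 for LHB and 0.00989 for TSHB, against 0.575 for FSHB, and within LG it was 0.00113 for FSHB and 0.00508 for TSHB, against 0.32 for LHB. Between the ends of the age range, LHB was 1.59 ± 0.35 higher at week 7 than at week 1 in HG (SE, 3.01-fold, adjusted p = 0.0701, with 0.0872% of spots passing) and 0.56 ± 0.33 higher in LG (adjusted p = 0.826, with 0.268% passing). TSHB differed by 0.92 ± 0.29 in HG and 0.61 ± 0.27 in LG. Unadjusted, LHB and TSHB passed in HG (8.2% of spots did), and TSHB and FSHB in LG (7.21%). Every HG bird of week 7 was above every HG bird of week 1 for LHB and for TSHB, as for 7.53% of spots. In LG the ages overlapped for both, and 3.97% of spots separated with week 7 higher. FSHB differed by 0.15 ± 0.45 in HG and by −1.06 ± 0.42 in LG (adjusted p = 0.515). Its spot was dim on 4 of 7 usable arrays at week 1 and on 2 of 8 at week 7. The part of this in the FSHB age course was not tested. The change in HG minus that in LG was 1.21 ± 0.62 for FSHB, 1.03 ± 0.48 for LHB and 0.31 ± 0.39 for TSHB, and none passed (adjusted p = 1.00), as 0.0116% of spots did, while LHB was among the 3.5% with an unadjusted p under 0.05. Without HG week 7 replicate 1, LHB passed both for week 7 against week 1 in HG (1.85, adjusted p = 0.0314) and for age over both lines (adjusted p = 0.0465), and without LG week 1 replicate 3 or LG week 3 replicate 2 it also passed for age.

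An exact permutation of the week labels within lines, added after the data had been seen and not adjusted, gave a week 7 minus week 1 value, averaged over the lines, of 1.07 for LHB (p = 0.00776), 0.77 for TSHB (p = 0.00449), −0.46 for FSHB (p = 0.232) and −0.16 for CGA (p = 0.59). Whether a subunit changed with age differently from another was tested within birds, on the difference of 2 log2 ratios over 6 pairs. From week 1 to week 7, the signed change in FSHB was 1.53 below that in LHB (−1.53, −1.44 in HG and −1.62 in LG, exact permutation p = 0.00204, adjusted 0.0122, n = 15 birds). The signed change in FSHB was also below that in TSHB (−1.22, −0.77 in HG and −1.67 in LG, exact permutation p = 0.0135, adjusted 0.0404), whereas LHB and TSHB did not differ beyond the spread (0.31, adjusted p = 0.425, exact test). In LG the change was downward for FSHB (−1.06) and upward for LHB (0.56) and TSHB (0.61). In HG it was upward for LHB (1.59) and TSHB (0.92), while that of FSHB was smaller than its SE (0.15 ± 0.45). The difference of FSHB and LHB held without any 1 bird (adjusted p of 0.00571 to 0.04, exact test), but not in Cy3 alone (−1.21, adjusted p = 0.378, exact test). It was −1.08 in the deposited values and −1.23 with spots of at least 2 times background, where 2 birds of week 1 were left and the exact test could give no p below 0.0833 and 0.0625. That of FSHB and TSHB exceeded 0.05 without HG week 1 replicate 1 or 4, any LG week 1 bird, HG week 7 replicate 1, 2 or 4, or LG week 7 replicate 1, 3 or 4, with adjusted p up to 0.103.

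The line difference of 1 β subunit against another passed for none of the 3 pairs (permutation test, 100000 resamples, adjusted over 6 pairs with CGA included). FSHB and LHB differed in it by 0.0052 (p = 0.98), FSHB and TSHB by 0.26 (adjusted p = 0.36, permutation test) and LHB and TSHB by 0.23 (adjusted p = 0.348, permutation test). Against CGA the differences were 0.75 for FSHB, 0.74 for LHB and 0.65 for TSHB (adjusted permutation p of 0.104, 0.0551 and 0.0551). These rest on the ratio of the saturated CGA spot, and the line differences of the α and β transcripts cannot be compared from them. Those of LHB and TSHB had adjusted p below 0.05 without any 1 of HG week 1 replicate 4, LG week 1 replicate 3, HG week 3 replicate 3 or 4, LG week 3 replicate 2 or LG week 5 replicate 4, and that of FSHB without LG week 1 replicate 3.

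Birds of the same line and age also varied. Over all birds, the deviations of FSHB and LHB from their group means had r = 0.52 and rho = 0.52 (n = 29, permutation p = 0.0197, adjusted over 6 pairs 0.118), and r = 0.39 without the 2 birds farthest out. The adjusted p was below 0.05 without HG week 1 replicate 1 or 2 or HG week 7 replicate 1 or 2, with r of 0.58 to 0.62. Over both lines, 1.80% of spots had a higher correlation with the FSHB deviations than LHB did. For the LHB deviations, 4.65% of spots had a higher correlation than FSHB did. No such share was taken within LG or HG alone. The other pairs had r of 0.44 for LHB and CGA, 0.29 for LHB and TSHB, 0.28 for TSHB and CGA, 0.16 for FSHB and TSHB and 0.16 for FSHB and CGA, and none of the 6 passed. Within LG alone, FSHB and LHB deviated together, with r = 0.83 and rho = 0.81 (n = 15, permutation p = 0.00132, adjusted over 12 relations 0.0158), and r = 0.76 without the 2 farthest birds (permutation p = 0.0202). In HG the same relation was r = −0.05 (n = 14, permutation p = 0.884). The difference of r between HG and LG was −0.88, and its permutation p, a test added after the data had been seen, was 0.00867 with 100000 resamples and 0.052 adjusted over 6 pairs, so the lines are not shown to differ in it. This p lies at the threshold: 10 sets of 10000 resamples gave unadjusted values of 0.0076 to 0.0108, which fall on both sides of 0.05 once adjusted. The relation in LG no longer passed without LG week 1 replicate 3 (r = 0.78, adjusted p = 0.07, permutation test) or LG week 7 replicate 2 (r = 0.82, adjusted p = 0.0984, permutation test), the birds with the highest FSHB deviations in those groups. On both of these arrays the FSHB background was over 50% of the Cy3 signal. With spots of at least 2 times background the LG value was r = 0.99 over the 7 birds left, none of week 1 (permutation p = 0.0826, adjusted 0.33), where the smallest p the design allows is 0.0417. With the replicate number as a block it was r = 0.76 and no longer passed (permutation p = 0.00805, adjusted 0.0966), and in Cy3 alone it was r = 0.37 (adjusted p = 0.505, permutation test). In the deposited values only 4 LG birds were left for it, too few to test.

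**Figure D4:**
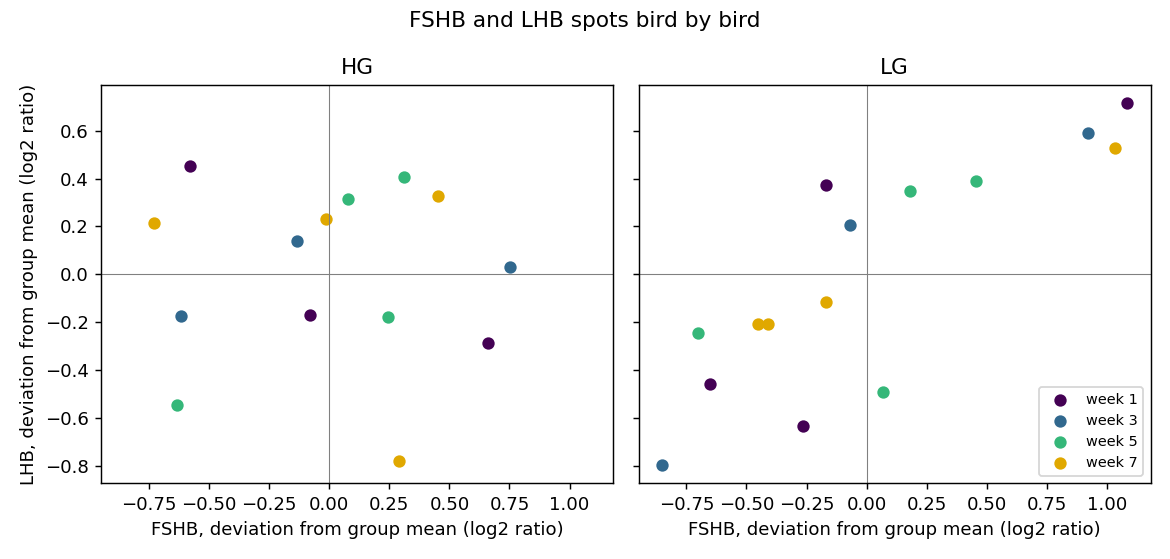
Deviation of the LHB log2 ratio from its group mean (vertical) against that of FSHB (horizontal), with 1 point per bird coloured by age, for HG birds (left) and LG birds (right). The 15 LG points lie along a rising band (r = 0.83), and the 14 HG points show no such band (r = −0.05).

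Over the 8 group means, LHB and TSHB ran most closely together of the 6 pairs (r = 0.90, a description over 8 points that share line and age). Other spots followed them as closely: 0.384% of spots had a higher correlation with the TSHB means than LHB did, and 0.797% had a higher one with the LHB means than TSHB did. By deviations from the group means, the named spots most like LHB were QSOX1, which forms disulfide bonds in secreted proteins (r = 0.76), ATXN7 (0.75) and DIO1, a deiodinase of thyroid hormone (0.74, for 1 of 30 tested spots with that symbol). Those most like FSHB were SDF2L1, a protein of the endoplasmic reticulum (0.76), SLC25A3, the mitochondrial phosphate carrier (0.75), and KCNH4, a potassium channel (0.72). For TSHB they were RPL39L (0.75), BNIP3 (0.67) and SOD3, the extracellular superoxide dismutase (0.67), and for CGA they were ANAPC16 (0.71), CMTR1 (0.70) and ACTG1 (0.69). By group means they were YWHAH (0.99), NIPSNAP1 (0.98) and HNRNPD (0.98) for LHB, LMF1 (0.98), FAM64A (0.95) and PRKCH (0.93) for FSHB, CIR1, DEPTOR and PCDHAC2 (0.97 each) for TSHB, and TXNRD3 (0.93), HGF (0.93) and TMEM80 (0.91) for CGA. These are the highest of the correlations with all such spots, over 24 to 31 birds or 8 groups. Replicate number was not removed from the deviations, although 28 of 31 arrays correlated best with an array of their own number. The part of replicate number in these likenesses was not tested.

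Genes that act with the subunits were read from lists of the pathway. For N-glycosylation and folding, by which the glycoprotein chains are completed in the endoplasmic reticulum, 1 of 61 tested spots passed for line, HSPA5, the chaperone BiP, which was 0.56 ± 0.11 higher in HG (SE, adjusted p = 0.0191). Over all spots 0.337% passed for line and 0.576% for age. Line differences were positive for 42 of 61 spots of that list (median 0.063) and 17 of 20 of the secretory granule list (0.091). They were positive for 7 of 20 transcription factors (−0.048) and 8 of 20 spots of releasing hormone signalling (−0.040). Receptors on gonadotropes and thyrotropes had 9 of 12 positive (0.065), thyroid hormone conversion 16 of 34 (−0.012) and activin and BMP signalling 8 of 14 (0.035). Of all spots 50.3% were positive (0.001). Of 20 spots for the secretory granule none passed for line and 2 passed for age, CHGB, a granin of the granule core (week 7 minus week 1 of 1.22 in HG and 2.31 in LG, adjusted p for age 0.00949), and PCSK1, a prohormone convertase (0.68 in HG and 1.10 in LG, adjusted p for age 0.0308). The smallest line p of that list belonged to SCG3, which was higher in LG (−0.76 ± 0.22, SE, adjusted p = 0.157). Of 12 spots for receptors on gonadotropes and thyrotropes 1 passed for age, CRHR2, through which corticotropin-releasing hormone acts on chicken thyrotropes (0.79 in HG and 1.05 in LG, adjusted p = 0.047), and none for line. Of 20 spots for signalling below the releasing hormone receptors 1 passed for age, ADCY2, an adenylate cyclase (2.34 in HG and 5.13 in LG, adjusted p = 0.00335), and none for line. The line difference of ADCY2 was −1.24 ± 0.40 (SE, higher in LG, adjusted p = 0.278). In the lists of thyroid hormone conversion (34 spots), transcription factors of the gonadotrope and thyrotrope lineages (20 spots) and activin and BMP signalling (14 spots), none passed for line or age. These lists covered only 3 of 7, 12 of 27 and 10 of 27 of their gene symbols in that order, and DIO1 alone gave 30 of the 34 spots. The receptor list covered 8 of 29 symbols, releasing hormone signalling 13 of 33, the secretory granule 14 of 20 and N-glycosylation 38 of 64. The smallest line p in the activin and BMP list belonged to SMAD1, which carries BMP signals (0.66, adjusted p = 0.3). Among transcription factors GATA2 and JUN each had −0.30.

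Of the pituitary markers, PRL had a median Cy3 signal of 73.1 times background on 27 arrays (saturated pixels on 26) and POU1F1 of 5.17 times on 31, and the spots of GH had 55.1 times (saturated pixels on 26 arrays) and 1.91 times and those of POMC 4.27 and 2.35 times. The glial marker GFAP had 57.9 times on a spot with saturated pixels on all 31 arrays and 3.26 times on another, and AVP, OXT, MTNR1A, SOX2 and PITX1 were not named on the array. The mean log2 ratio of 5 erythrocyte spots ran from −0.66 to 0.52 over HG birds and −0.82 to 0.35 over LG birds. That of 8 glia spots ran from −0.42 to 0.11 and from −0.47 to 0.21 in the same order. The median week 7 minus week 1 difference of the glia spots was −0.55 in HG and −0.15 in LG. That of the erythrocyte spots was −0.45 in HG and 0.008 in LG, beside −0.014 and −0.0099 over all spots. The part of these cells in the age courses was not tested. JCHAIN, the only spot for plasma cells, ran from −1.09 to 0.59 in HG and −1.56 to 1.86 in LG. Its week 7 minus week 1 difference was 0.28 in HG and 2.51 in LG, beside that of FSHB in LG at −1.06. The JCHAIN difference in LG passed the adjusted test, as 0.268% of spots did. Its test of age over both lines had an adjusted p of 0.0515. The part of JCHAIN in the age courses was not tested. HBBA, a globin, differed by −1.60 in HG and 0.35 in LG between the same ages. Arrays held 14786 to 18342 unflagged spots.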

How the data were processed

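Amplified RNA of each of 31 pituitaries (Cy3) was hybridised with a pool of all samples (Cy5), without dye swap. The authors read spots with Spotfinder, and the deposited intensity columns hold spot sums and local backgrounds that had not been subtracted. A deposited fraction gives the unsaturated pixels of each spot. The authors normalized in MIDAS (background check, lowess per block, regularization of standard deviations), and the deposited log2 values are Cy3 over Cy5.

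Here intensities were corrected by normexp (offset 50), turned into log2 ratios and fitted by loess within arrays. Spots with a bad flag in either channel were missing, and a spot was tested if present on at least 16 of 31 arrays and in every group. Group means were fitted in limma 3.58.1 (R 4.3.3). Benjamini-Hochberg adjustment ran over the 17193 spots tested, with a threshold of 0.05. The fit was tested on simulated data, with noise drawn independently for each spot and array. Such data lack the likeness between arrays of the same replicate number, so the test does not cover it. Subunits were compared within birds, and correlated, by two-sided permutation tests with 100000 resamples or exact enumeration. The platform table names 9940 tested spots.

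The members and gene lists were chosen with earlier results of these data known. Named spots are the 4 members, for each the 3 named spots with the highest correlation of deviations and the 3 of group means (spots on at least 28 arrays), and in each list the spots that passed or up to 2 with the smallest line p. The filters at 2 times background and at 10% unsaturated pixels, the difference of correlations between lines and the permutation test of each subunit over age were added after the data had been seen. The difference of correlations was first run with 10000 resamples under 2 seeds, whose adjusted p fell on either side of 0.05, and was then raised to 100000.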

Additional observations from a re-analysis of the deposited data

Results flagged for a closer look

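In 3 of 22 combinations of a subunit and a group with 4 usable birds, 1 bird lay far from the others, which chance gives in about 1 of 20. The combinations share birds and are not independent. LHB was lowest in HG week 7 replicate 1 at −0.17, with the other birds of the group at 0.82 to 0.94. LHB was highest in LG week 7 replicate 2 at −0.29, with the others at −1.03 to −0.93. CGA was lowest in LG week 5 replicate 4 at −1.28, with the others at −0.24 to −0.10.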

How the results depend on the processing

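The line differences of FSHB, LHB and TSHB stayed positive under every alternative run in which the spot was tested (only TSHB is on all 31 arrays), and passed under all but Cy3 alone and, for FSHB and TSHB, replicate numbers 2 to 4. Values below are log2 differences unless named, with adjusted p in brackets, and the cause of each change was not tested. No adjustment: with unadjusted p from a two-way model, line at week 3 passed for FSHB 1.29, LHB 1.26, TSHB 1.33 and CGA 0.92, at week 5 for FSHB 1.78, LHB 1.28 and TSHB 1.03, and at week 7 for FSHB 1.37, LHB 1.43 and TSHB 0.70. Age then had p of 0.0176 (FSHB), 0.00156 (LHB) and 0.00102 (TSHB), in HG 0.00164 (LHB) and 0.0151 (TSHB), and in LG 0.00272 (FSHB) and 0.00829 (TSHB). Week 7 minus week 1 passed in HG for LHB 1.59 and TSHB 0.92 and in LG for FSHB −1.06 and TSHB 0.61. The spots called were then 1252 for line, 1485 for age, and 1431 in HG and 1221 in LG for week 7 against week 1.

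The spots called for line, 58, were 109 with no background correction, 188 in the deposited table, 7 in Cy3 alone, 105 with array weights and 12 with replicate numbers 2 to 4. Those for age, 99, were 41 with median centring, 164 in the deposited table, 1 in Cy3 alone, 59 with all positive spots and 39 with numbers 2 to 4. Those for week 7 against week 1 in HG, 15, were 34 (print-tip loess), 26 (no background correction), 90 (deposited), 4 (Cy3 alone), 23 (spots on all arrays), 113 (array weights), 5 (numbers 2 to 4) and 25 (at least 2 times background). In LG, 46, they were 28 (median centring), 83 (deposited), 8 (Cy3 alone) and 28 (numbers 2 to 4).

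Print-tip loess gave CGA 0.032 at week 5 and 0.059 for week 7 minus week 1 in LG, FSHB minus LHB −0.0041 for line, FSHB minus TSHB −1.15 (0.0563) for age, and a difference of r between HG and LG for FSHB and LHB of −0.95 (0.0423). Median centring gave CGA 0.014 in HG and 0.061 in LG for week 7 minus week 1, LHB minus CGA 0.70 (0.0445) and TSHB minus CGA 0.62 (0.0445) for line, and a difference of r of −0.84 (0.0427). Scaling gave FSHB −0.015 at week 1, CGA 0.072 in LG over age, r of 0.58 (0.0188) for FSHB and LHB and 0.24 within HG, FSHB minus LHB −0.028 for line and FSHB minus TSHB −1.19 (0.0808) for age. No background correction gave FSHB 1.82 (0.0184) at week 5 and 1.58 (0.0197) at week 7, an adjusted p of 0.0283 for FSHB over age in LG, CGA 0.029 in LG over age, and r of 0.65 (0.00942) for FSHB and LHB and 0.34 within HG.

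The deposited table, where FSHB is on 16 arrays, gave FSHB 1.29 (0.0179) and LHB 1.68 (0.0419) at week 5, FSHB 1.77 (0.000965) and LHB 1.52 (0.0281) at week 7, and CGA 0.090 at week 5. It also gave r of −0.042 for FSHB and TSHB and 0.67 for FSHB and LHB within HG, and over age, with too few birds for the test to pass, FSHB minus LHB −1.08 (0.25) and FSHB minus TSHB −1.14 (0.25), and FSHB minus CGA 0.021 and LHB minus TSHB −0.053. Cy3 alone gave line differences of 1.17 (0.304) for FSHB, 1.14 (0.999) for LHB, 0.80 (0.111) for TSHB and −0.17 for CGA, and CGA −0.35 at week 3 and 0.99 at week 5. Its r was −0.053 for LHB and CGA, −0.14 for TSHB and CGA and 0.42 for FSHB and LHB within HG, with a difference of r of 0.048. It gave FSHB minus LHB −0.047 for line and −1.21 (0.378) over age, FSHB minus TSHB −0.54 (0.403) and FSHB minus CGA 1.00.

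All positive spots gave CGA 0.21 at week 7 and 0.033 for the change in HG minus LG, LHB minus CGA 0.76 (0.035) for line and 1.10 (0.0269) over age, and TSHB minus CGA 0.97 (0.038) over age. With spots on all 31 arrays, TSHB had an adjusted p of 0.0372 for age. Array weights gave FSHB −0.18 and CGA −0.058 at week 1, TSHB 1.42 (0.0351) at week 3, CGA 0.031 at week 5, LHB 1.59 (0.0164) at week 7, an adjusted p of 0.0433 for TSHB over age, and week 7 minus week 1 of 1.50 (0.0305) for LHB and 0.038 for CGA in HG and 0.11 for CGA in LG. Replicate numbers 2 to 4 gave line differences of 1.06 (0.18) for FSHB and 0.85 (0.0729) for TSHB, and FSHB −0.26 and CGA −0.014 at week 1. CGA was then 0.081 at week 5, 0.11 at week 7, 0.26 in HG and 0.14 in LG over age and 0.12 for the difference of these. FSHB minus LHB was −0.15 for line, FSHB minus TSHB −1.33 (0.18) over age, and the difference of r −1.07 (0.00378).

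Spots of at least 2 times background gave FSHB 1.68 (0.0196) at week 5 and 1.96 (0.0042) at week 7, adjusted p for age of 0.0486 (LHB) and 0.0409 (TSHB), and LHB 1.59 (0.0425) in HG over age. They gave r of −0.44 for FSHB and TSHB and −0.18 for FSHB and CGA, and over age, again with too few birds to pass, FSHB minus LHB −1.23 (0.12) and FSHB minus TSHB −1.35 (0.12), and FSHB minus CGA 0.047. Spots with at least 10% unsaturated pixels gave CGA 0.25 at week 5 and 0.24 in LG over age, and r of −0.42 for TSHB and CGA.

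The replicate numbers are shared between groups, but no label says that they mark a common batch, and they were not treated as pairs. Over 7786 spots, 105 pairs of arrays with the same number correlated at a mean r of 0.197 (−0.181 to 0.528) and 315 other pairs at −0.065, and 28 of 31 arrays correlated best with their own number. With the replicate block, LHB passed at week 7 (1.43, 0.0344), for age (adjusted p 0.0268) and in HG over age (1.47, 0.0336), FSHB in HG over age was −0.015 and CGA in LG 0.33. The block gave 98 spots for line, and 38 in HG and 82 in LG for week 7 against week 1, r of −0.051 for FSHB and CGA, FSHB minus LHB of −0.0042 for line, an r of FSHB and LHB within LG of 0.76 (0.0966), which no longer passed, and a difference of r of −1.25 (0.03).

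Leaving out each bird in turn gave 33 to 147 spots for line (33 without HG week 1 replicate 1, 38 without HG week 7 replicate 3 and 147 without HG week 1 replicate 4), 54 to 128 for age, and 6 to 56 in HG and 25 to 62 in LG for week 7 against week 1. FSHB ran from −0.17 to 0.52 at week 1 and −0.14 to 0.48 in HG over age. TSHB ran from 1.18 to 1.45 at week 3 (0.0299 without LG week 1 replicate 2). LHB ran from 1.45 to 1.85 in HG over age (0.0314 to 0.363). The test of age over both lines gave LHB an adjusted p of 0.0434 to 0.293. CGA ran from −0.074 to 0.39 at week 1, −0.31 to 0.24 at week 5, −0.44 to 0.25 at week 7, −0.59 to 0.10 in HG and −0.24 to 0.21 in LG over age, and −0.58 to 0.11 for the difference of these. The r ran from 0.43 to 0.62 for FSHB and LHB, −0.031 to 0.27 for FSHB and CGA and −0.30 to 0.15 for FSHB and LHB within HG, and its difference between lines from −1.13 to −0.69, which passed in 9 of 31. For line, FSHB minus LHB ran from −0.11 to 0.13, FSHB minus CGA from 0.54 to 0.96, LHB minus CGA from 0.62 to 0.84 and TSHB minus CGA from 0.56 to 0.76. Over age, FSHB minus TSHB ran from −1.46 to −1.07 and TSHB minus CGA from 0.59 to 0.95. Saturation limits CGA, and low signal over background limits FSHB.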
